A study of Mus musculus with 6 samples.

Results

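CXC chemokines are small secreted proteins that steer white blood cells by binding seven-pass receptors, and the 4 studied here are Cxcl9, Cxcl10, Cxcl16 and Cxcl2. They are described with Art3, a gene of the ADP-ribosyltransferase family that lies across Cxcl10 on the opposite strand. The 5 genes were chosen by symbol with earlier results of these libraries known, among them the high Cxcl9 and Cxcl10 counts of LPC day 10 replicates 1 and 2. Their day 10 to day 3 differences are therefore given as a description, with no test. They are 5 of the 49671 genes of the FPKM table. Of the 5, 4 are among the 24984 genes of the count table, and 3 are among the 10535 left by the low-count filter. Art3 did not pass, and Cxcl2 is in the FPKM table only.

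The libraries hold polyadenylated RNA of microglia sorted from demyelinated corpus callosum of male C57BL/6J mice aged 10 weeks. Every mouse received 2 µl of 1% lysolecithin (LPC), a detergent-like lipid that strips myelin, and the groups differ in how long after it they were taken: LPC day 10 or LPC day 3, from 3 mice and with 3 libraries at either time. The gate kept CD11b positive, CD45 low cells and left out Ly6G and CD3 positive ones. No uninjured or vehicle-injected library was analysed here, so each comparison sets the later lesion against the earlier one.

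As background, Cxcl9 and Cxcl10 proteins bind the receptor CXCR3 on activated T cells and NK cells, and both genes are classical targets of interferon gamma. Cxcl10 also responds to type I interferon and to NF-κB. Cxcl16 is made as a membrane protein that ADAM proteases shed, and its receptor is CXCR6. Cxcl2 draws neutrophils through CXCR2 and is an NF-κB target. Brain-resident macrophages are a known source of these chemokines in inflamed tissue.

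The upstream sequences show how the promoter letters of these genes differ, and they come first because 3 of the genes share 1 stretch of the chromosome. RefSeq windows (build GRCm38.p6) were found for 4 of the 5 genes. Each line gives the 250 bases before the RefSeq start, 5′ to 3′ on the strand of the gene, and Art3 is shown at the first of its 3 windows, next to Cxcl9.
Cxcl9, chr5:92328080-92328329, minus strand: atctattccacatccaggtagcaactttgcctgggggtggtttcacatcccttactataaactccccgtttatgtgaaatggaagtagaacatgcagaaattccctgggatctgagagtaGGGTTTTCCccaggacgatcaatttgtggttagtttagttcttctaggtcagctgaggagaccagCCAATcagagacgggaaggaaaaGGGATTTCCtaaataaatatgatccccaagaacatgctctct
Cxcl10, chr5:92348890-92349139, minus strand: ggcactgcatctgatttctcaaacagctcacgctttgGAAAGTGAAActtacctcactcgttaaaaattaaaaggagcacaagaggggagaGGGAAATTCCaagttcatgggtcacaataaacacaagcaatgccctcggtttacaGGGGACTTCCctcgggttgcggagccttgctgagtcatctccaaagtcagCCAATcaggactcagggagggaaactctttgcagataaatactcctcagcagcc
Art3, chr5:92331577-92331826, plus strand: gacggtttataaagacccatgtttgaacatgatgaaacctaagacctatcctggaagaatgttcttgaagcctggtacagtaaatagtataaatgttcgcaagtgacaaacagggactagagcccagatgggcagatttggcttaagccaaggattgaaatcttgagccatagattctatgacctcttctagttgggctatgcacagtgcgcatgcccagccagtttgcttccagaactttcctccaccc
Cxcl2, chr5:90903649-90903898, plus strand: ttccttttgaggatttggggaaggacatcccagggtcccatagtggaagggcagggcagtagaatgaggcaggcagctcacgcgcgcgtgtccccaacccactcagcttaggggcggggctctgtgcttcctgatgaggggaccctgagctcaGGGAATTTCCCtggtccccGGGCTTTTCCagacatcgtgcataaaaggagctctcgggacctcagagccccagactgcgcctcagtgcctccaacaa
Capitals mark matches, on either strand, to 6 sets of letters. The interferon-stimulated response element core was GAAA, any 2 bases and GAAA. The gamma-activated site cores were TTC, any 3 or any 4 bases and GAA. The κB cores were GGG, any 3 bases and TTCC (10 bases) or GGG, any 2 bases and TTCC (9 bases), and the last was the CCAAT box. The letters were chosen with the windows in view.

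The Cxcl10 window held the response element letters from base -213 to -204, and 2.98% of the 32851 windows of this length in the table hold them. It also held 10-base κB letters from -159 to -150 and from -104 to -95, the later one containing a 9-base match. Cxcl2 had 3 matches to the 10-base κB letters, of which 2 overlap on opposite strands. The 10-base letters occur in 4.65% of windows. Cxcl9 matched the 9-base κB letters from -130 to -122 and from -42 to -34 (4.98% of windows). Cxcl9 and Cxcl10 each had 1 CCAAT, found in 33.8% of windows, and it lies inside the longest run the pair shares, 11 bases that start at -68 in Cxcl9 and -57 in Cxcl10. The Art3 window held none of these letters. The gamma-activated site letters (7.02% and 5.85% of windows) were in none of the 4 windows shown. A match is a description of letters, and a missing match says only that these letters are not in the window.

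Cxcl9 (ENSMUSG00000029417) lies on chromosome 5 from 92321347 to 92328079 on the minus strand in GENCODE M21 (GRCm38). Art3 (ENSMUSG00000034842) runs from 92331827 to 92414628 on the plus strand, and its start lies 3748 bases from that of Cxcl9, facing away from it. Cxcl10 (ENSMUSG00000034855, 92346638 to 92348889, minus strand) and Cxcl11 lie inside the Art3 gene. Cxcl2 (ENSMUSG00000058427) is elsewhere on the same chromosome, from 90903871 to 90905938 on the plus strand, and Cxcl16 (ENSMUSG00000018920) is on chromosome 11, from 70453983 to 70459984 on the minus strand.

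Exons of Art3 and Cxcl10 share 133 bases, from 92346638 to 92346770. On the Art3 side they belong to 1 transcript annotated as non-coding (ENSMUST00000135528, 3 exons), whose last exon runs from 92345112 to 92346770. On the Cxcl10 side they are the far end of the last exon of its coding transcript. Exons of Cxcl9 share 0 bases with Art3. The sources used here do not say which program counted the reads or whether strand was used, so reads in the 133 bases cannot be assigned to a gene by position.

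**Figure D1:**
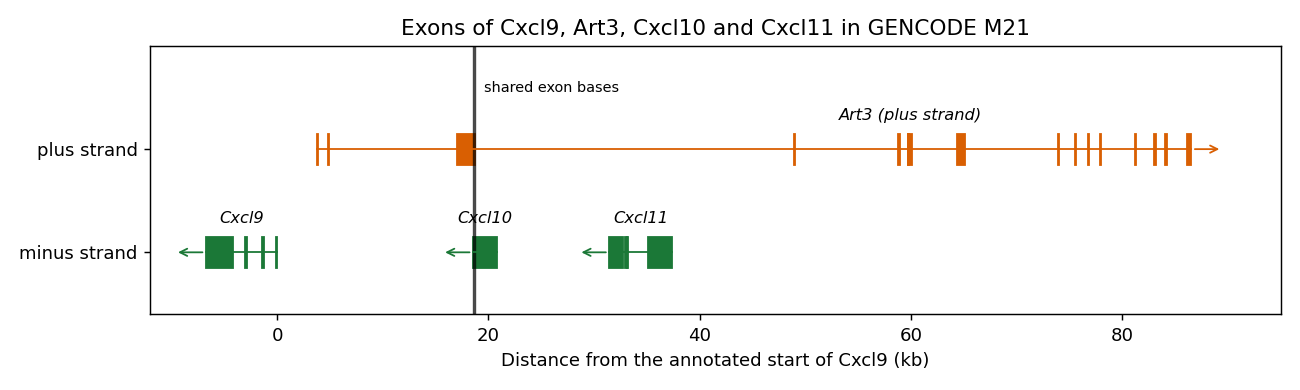
Exons (boxes) and gene spans (lines) of Cxcl9, Art3, Cxcl10 and Cxcl11, by distance in kb from the annotated start of Cxcl9, with the plus strand above and the minus strand below and arrows showing the direction of transcription. The dark band marks the 133 bases that exons of Art3 and Cxcl10 share.

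Library totals ran from 5890081 to 9021700 counts at day 10 and from 7005939 to 9212197 at day 3. LPC day 10 replicate 3 stood apart: of the 10535 genes tested it lacked counts for 1622, where the other day 10 libraries lacked 58 and 73 and the day 3 libraries 170 to 566. Fitted changes of the chemokine genes are therefore also given without it. Levels are CPM (counts scaled to a common library size) after TMM scaling, and a 0 in a library allows up to 3 counts, which is 0.314, 0.323 and 0.807 CPM in replicates 1, 2 and 3 of LPC day 10 and 0.295, 0.427 and 0.362 CPM in replicates 1, 2 and 3 of LPC day 3. In sorted bulk cells, fewer cells expressing a gene and less RNA per cell cannot be told apart.

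Cxcl9 had 1127, 1036 and 2 counts in LPC day 10 replicates 1, 2 and 3, against 17, 3 and 2 counts in LPC day 3 replicates 1, 2 and 3. In CPM it had 118, 111.5 and 0.538 at day 10, against 1.67, 0.427 and 0.241 at day 3. Both high libraries are of day 10, and the third day 10 library lies within the day 3 range, so the groups overlap. The mean was 76.7 ± 66.0 CPM at day 10 and 0.779 ± 0.777 CPM at day 3 (SD, n = 3 each). The fitted log2 fold change was 6.57 ± 1.66 (edgeR, SE), and it ran from 6.12 to 7.77 when each library was left out in turn. Leaving out LPC day 10 replicate 3 gave 7.12 ± 1.10. On log2 of FPKM plus 1 the value was 3.43.

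Cxcl10 had 965, 2684 and 6 counts in LPC day 10 replicates 1, 2 and 3, against 416, 207 and 60 counts in LPC day 3 replicates 1, 2 and 3. In CPM these are 101, 288.9 and 1.61 at day 10, against 40.9, 29.5 and 7.24 at day 3. The highest libraries are again LPC day 10 replicates 2 and 1, but unlike Cxcl9 the gene was well above the detection floor in all day 3 libraries, and its lowest library is of day 10. The mean was 130.5 ± 145.9 CPM at day 10 and 25.9 ± 17.1 CPM at day 3 (SD, n = 3 each), with a log2 fold change of 2.34 ± 1.17. Without LPC day 10 replicate 2 it was 0.97 ± 1.47, and without replicate 3 it was 2.89 ± 0.77. In limma it was 1.56 on the counts (voom) and 1.15 on log2 of FPKM plus 1.

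Cxcl9 and Cxcl10 did not keep a fixed proportion across the libraries. The high counts of both genes in LPC day 10 replicates 1 and 2 were known before this was read. There were 1.17 and 0.386 Cxcl9 counts per Cxcl10 count in LPC day 10 replicates 1 and 2 (exact 95% intervals 1.07 to 1.27 and 0.359 to 0.415). Day 3 had 0.0409, 0.0145 and 0.0333 in replicates 1, 2 and 3, with upper limits of 0.0662, 0.0429 and 0.126. LPC day 10 replicate 3 had 2 and 6 counts of the pair, which leaves its ratio between 0.0329 and 1.86. That interval overlaps those of the day 3 libraries, so the ratios do not separate the time points. These intervals cover counting error only.

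**Figure D2:**
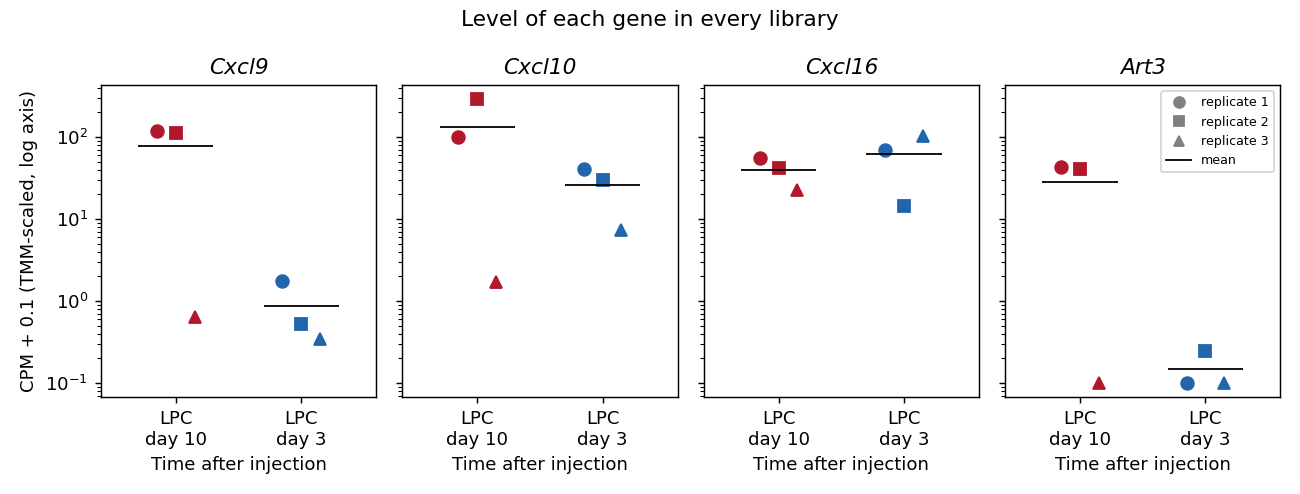
Level of Cxcl9, Cxcl10, Cxcl16 and Art3 in each library, as TMM-scaled CPM plus 0.1 on a log axis, with LPC day 10 at the left, LPC day 3 at the right, a symbol for each replicate and a line at the mean. LPC day 10 replicates 1 and 2 are high for Cxcl9 (118 and 111.5 CPM) and Art3 (42.8 and 40.4 CPM), and LPC day 10 replicate 3 is low for both.

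Cxcl16 had 533, 385 and 84 counts in LPC day 10 replicates 1, 2 and 3, against 701, 101 and 839 counts in LPC day 3 replicates 1, 2 and 3. In CPM it had 55.8, 41.4 and 22.6 at day 10, against 68.9, 14.4 and 101.2 at day 3. The day 10 libraries all lie inside the day 3 range. The mean was 39.9 ± 16.6 CPM at day 10 and 61.5 ± 43.9 CPM at day 3 (SD, n = 3 each), with a log2 fold change of -0.62 ± 1.11 and a range of -1.11 to -0.04 when each library was left out. Among the 3 chemokine genes with counts its level was the highest of them in LPC day 10 replicate 3. With this library left out, its log2 fold change was -0.37 ± 0.87.

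Cxcl2 is listed at 0 FPKM in all 6 libraries. It is not among the genes of the count table, so no floor in counts can be given for it, and no fold change was computed. The FPKM table lists 24687 such genes, each at 0 in every library.

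Art3 had 409, 375 and 0 counts in LPC day 10 replicates 1, 2 and 3, against 0, 1 and 0 counts in LPC day 3 replicates 1, 2 and 3. This is 42.8, 40.4 and 0 CPM at day 10, against 0, 0.142 and 0 CPM at day 3. It had more than 1 count in 2 libraries, both of day 10, and the groups overlap through LPC day 10 replicate 3. Since it did not pass the filter, its fitted log2 fold change comes from the same fit without that filter and was 8.90 ± 2.43, a size that depends on the prior count. Without LPC day 10 replicate 3 the gene passed the filter, since the day 10 libraries left are those where it is high. That filtered fit gave 9.51 ± 1.90, so it differs from 8.90 in its filter as well as in its libraries. Summed over the groups there were 784 counts at day 10 and 1 at day 3, a depth-scaled ratio of 886 (exact 95% interval 159 to 35035.5, counting error only). The interval pools the libraries of each time point and leaves out the spread between them, so it does not compare the groups.

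Set beside Cxcl10, whose exons it overlaps, Art3 did not follow in proportion. There were 0.424 and 0.140 Art3 counts per Cxcl10 count in LPC day 10 replicates 1 and 2 (exact 95% intervals 0.377 to 0.476 and 0.125 to 0.156). LPC day 3 replicate 1 had 416 Cxcl10 counts and 0 of Art3, an upper limit of 0.00891, and LPC day 3 replicate 2 had 1 for 207, or 0.00483 (0.000122 to 0.0272). The ratio thus differed beyond counting error between LPC day 10 replicates 1 and 2, and both lay above the upper limits of all 3 day 3 libraries, the highest being 0.0634. In LPC day 10 replicate 3, with 6 Cxcl10 counts, any ratio up to 0.849 is possible.

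Set beside Cxcl9, with which it shares no exon base, Art3 had the same proportion within counting error in both libraries where the pair is high. There were 0.363 Art3 counts per Cxcl9 count in LPC day 10 replicate 1 (0.323 to 0.407) and 0.362 in replicate 2 (0.321 to 0.408). This comparison was chosen after the values were seen. LPC day 3 replicate 1 had 17 Cxcl9 and 0 Art3 counts, with an upper limit of 0.242, and the remaining libraries had at most 3 Cxcl9 counts and leave the ratio undetermined. Across the 6 libraries Pearson's r of log2 CPM was 0.979 for Art3 with Cxcl9, 0.788 for Art3 with Cxcl10 and 0.811 for Cxcl9 with Cxcl10. These are descriptions over 6 points in which the same 2 libraries are high, and the rank correlations were 0.522, 0.696 and 0.771. Cxcl16 had r of 0.105 to 0.172 with the other 3.

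**Figure D3:**
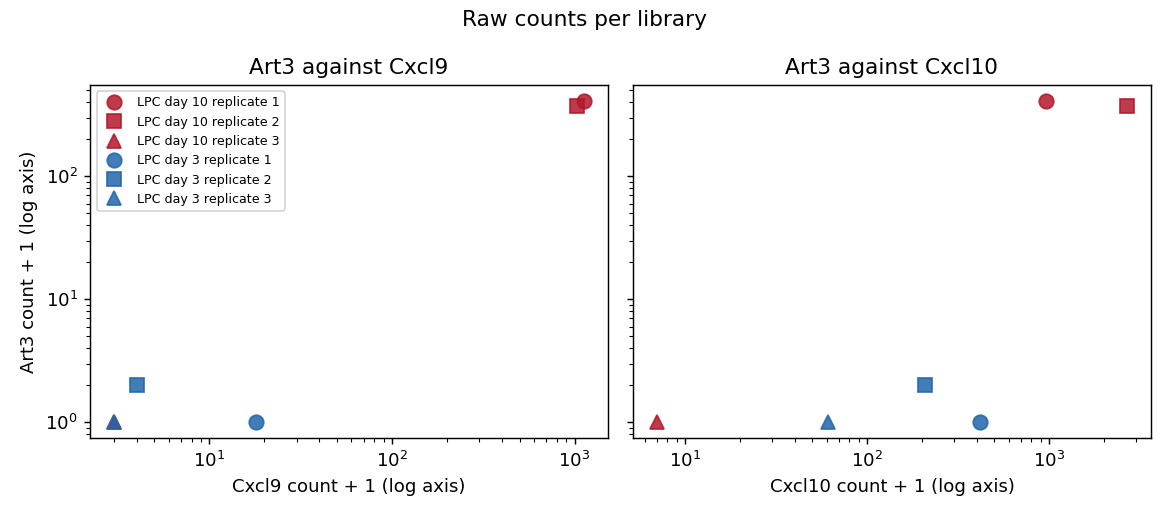
Raw counts of Art3 (vertical) against Cxcl9 (left) and Cxcl10 (right) in each library, each plus 1 on log axes, with LPC day 10 in red and LPC day 3 in blue and a symbol for each replicate. At day 3 Art3 stays at 0 or 1 count while Cxcl10 reaches 416.

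In the authors' deposited table, which gives day 3 over day 10, the log2 fold changes were -5.28 for Cxcl9, -1.16 for Cxcl10, 0.31 for Cxcl16 and -6.25 for Art3, so a negative sign there means higher at day 10. Each has the direction described above. Per length, in the authors' FPKM and with columns known by time point only, Cxcl10 had 0.452, 64.6 and 132.1 at day 10, against 2.89, 13.1 and 20.3 at day 3. Cxcl9 had 0.113, 38.1 and 56.3 FPKM at day 10, against 0.0720, 0.142 and 0.620 at day 3. Cxcl16 had 4.72, 14.1 and 26.6 FPKM at day 10, against 4.77, 25.5 and 30.1 at day 3, and Art3 had 0, 10.6 and 15.7 at day 10, against 0, 0 and 0.0363 at day 3. By the middle value the order at day 10 was Cxcl10, Cxcl9, Cxcl16, Art3 and Cxcl2, and at day 3 it was Cxcl16, Cxcl10, Cxcl9, with Art3 and Cxcl2 at 0. At day 10 the ranges of each pair of neighbours down to Art3 overlap. At day 3 those of Cxcl16 and Cxcl10 overlap, while the lowest Cxcl10 value lies above the highest of Cxcl9. In LPC day 3 replicate 1 Cxcl9 had 17 counts and Art3 0, so Cxcl9 was the higher there. The order of Cxcl9 and Art3 is not resolved in LPC day 3 replicates 2 and 3. Cxcl9 had 3 and 2 counts in them and Art3 1 and 0, all within the 3 counts that a 0 allows.

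**Figure D4:**
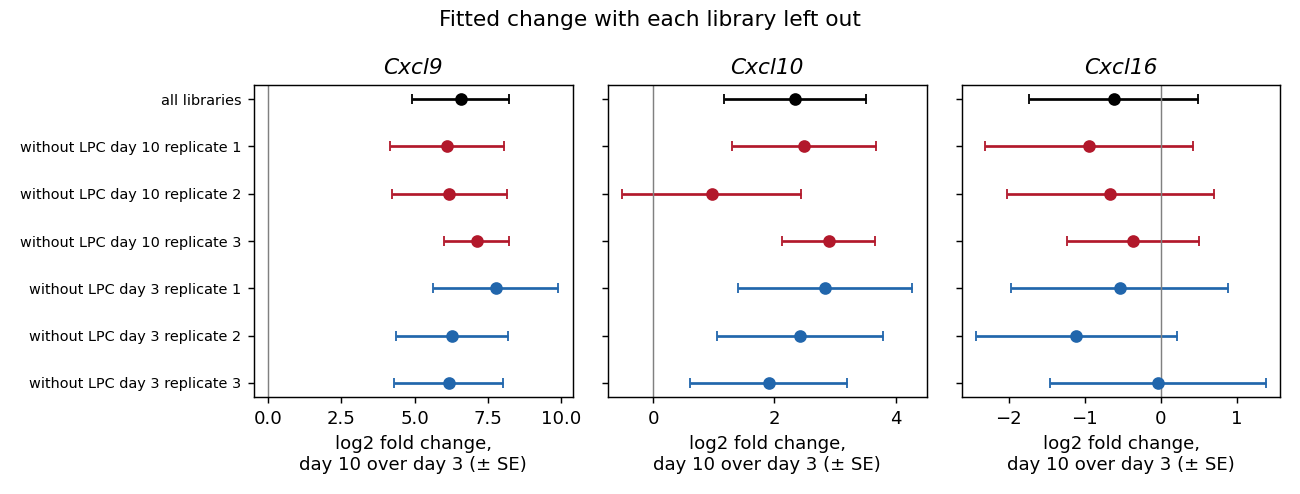
Fitted log2 fold change of Cxcl9, Cxcl10 and Cxcl16, day 10 over day 3, with all libraries (black) and with each library left out (red for day 10, blue for day 3), and bars of 1 SE from edgeR. Cxcl9 stays between 6.12 and 7.77, and Cxcl10 is lowest (0.97) without LPC day 10 replicate 2.

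The rest of the CXC system was read from lists chosen by function. Over all genes, edgeR's quasi-likelihood test called 0.114% higher and 0% lower at an adjusted p (Benjamini-Hochberg) under 0.05. With p under 0.05 before adjustment 501 genes were higher and 145 lower, and DESeq2 called 45 higher and 19 lower. Of 67 pathway genes 37 were tested, 0 of them were called in either direction (lowest edgeR adjusted p 0.822), and 0 had an unadjusted p under 0.05, against 6.13% of all genes. DESeq2 and limma-voom called 0 of them as well. Their median log2 fold change was 0.22, with 23 positive, against -0.0023 over all genes, of which 49.9% were positive. Without LPC day 10 replicate 2 it was -0.079, with 17 of 38 positive, against -0.15 over all genes. Without LPC day 10 replicate 3 it was 0.0095, with 20 of 40 positive, against -0.090 over all genes. With any other library left out it lay between 0.10 and 0.34.

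Among the other CXC ligands, 1 of 11 had enough counts to be tested. Cxcl13, which guides B cells through CXCR5, had 51.1, 97.3 and 0.538 CPM in replicates 1, 2 and 3 of LPC day 10, against 26.7, 0.569 and 0.362 CPM in replicates 1, 2 and 3 of LPC day 3. Its value was 2.43 ± 1.54 on the log2 scale (adjusted p = 0.979 in edgeR). It became 6.69 with LPC day 3 replicate 1 left out (adjusted p = 0.275 in edgeR). Cxcl11, the third CXCR3 ligand and annotated as a polymorphic pseudogene in this genome, had 3, 23 and 0 counts at day 10, against 0, 1 and 0 at day 3. Like Cxcl10 it lies within Art3, but its exons share 0 bases with those of Art3.

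**Figure D5:**
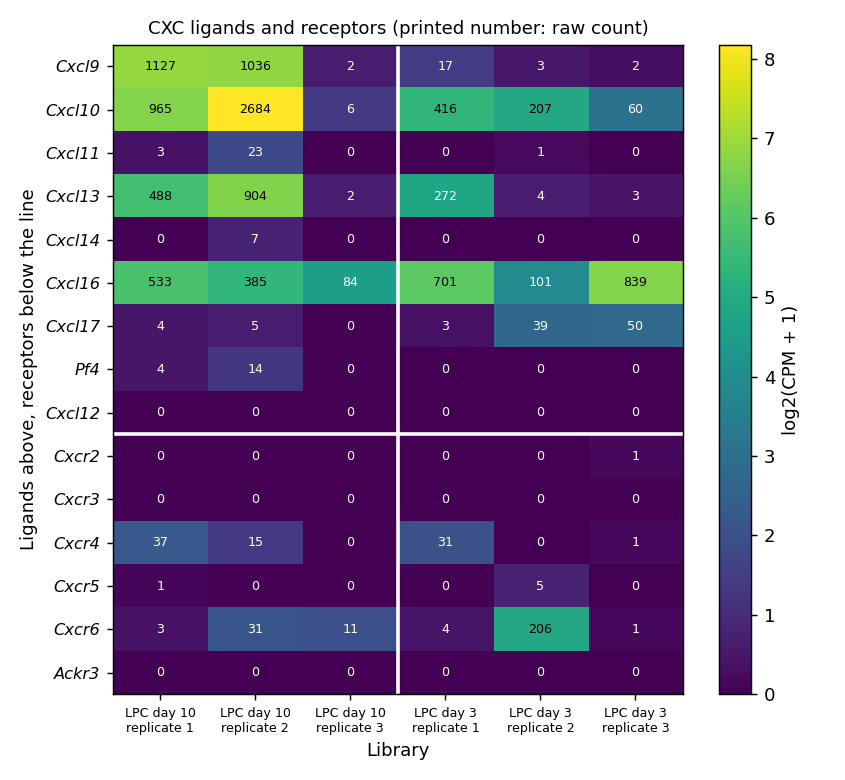
Colour gives log2 of CPM plus 1 and the printed number is the raw count for CXC ligands (above the line) and receptors (below it) in each library, with LPC day 10 at the left and LPC day 3 at the right. Cxcl9, Cxcl10, Cxcl13 and Cxcl16 hold most of the ligand counts, and the CXCR3 receptor gene is at 0 throughout.

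Of the receptor genes, Cxcr3 had no count in any library, and Cxcr2, the receptor for Cxcl2, had 1 count in LPC day 3 replicate 3. Cxcr6, the receptor for Cxcl16, had 3, 31 and 11 counts in LPC day 10 replicates 1, 2 and 3, against 4, 206 and 1 in LPC day 3 replicates 1, 2 and 3, with a value of -2.17 ± 2.06 on the log2 scale (adjusted p = 0.999 in edgeR). A single day 3 library decides that direction: without LPC day 3 replicate 2 the value was 3.01 (adjusted p = 0.999 in edgeR). Cxcr4, the receptor for Cxcl12, had a value of 0.79 ± 2.12 on the log2 scale (adjusted p = 0.999 in edgeR), -0.35 without LPC day 10 replicate 1 and 4.54 without LPC day 3 replicate 1. Cxcl12 itself had no count.

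Of the interferon gamma pathway, 9 of 13 genes were tested and 5 had a positive value. Ifng is listed at 0 FPKM in every library. Jak2, a kinase of the interferon gamma receptor, had 16.9, 35.0 and 10.8 CPM in replicates 1, 2 and 3 of LPC day 10, against 87.9, 36.2 and 95.4 CPM in replicates 1, 2 and 3 of LPC day 3, and its value of -1.81 ± 1.14 on the log2 scale did not pass (adjusted p = 0.979 in edgeR). Jak2 and Adam17 are the 2 of the 37 with every day 10 library below every day 3 library, which holds for 4.97% of all genes tested. Over all genes tested, 3.47% had every day 10 library above every day 3 library.

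The receptor subunit genes of interferon gamma stood at opposite ends in LPC day 10 replicate 3. Ifngr1 had 128.1, 71.1 and 1035 CPM in replicates 1, 2 and 3 of LPC day 10, against 170.1 to 210 CPM at day 3. Ifngr2 had 138.3, 66.7 and 5.92 CPM in the same day 10 libraries, against 100.6 to 270.7 CPM at day 3. Without that library the log2 fold change of Ifngr1 was -0.99, against 1.09 with all, and that of Ifngr2 was -0.82, against -1.33 with all. Of the type I interferon pathway, 8 of 9 genes were tested and 6 had a positive value, with Tyk2, a receptor-bound kinase, at 2.10 ± 1.05 on the log2 scale (adjusted p = 0.822 in edgeR; 0.04 without LPC day 10 replicate 3) and Irf7, an interferon-induced factor, at 3.47 ± 2.01 (adjusted p = 0.924 in edgeR). Irf7 had 33.4, 13.9 and 0.269 CPM in replicates 1, 2 and 3 of LPC day 10, against 2.65, 0.142 and 1.45 CPM in replicates 1, 2 and 3 of LPC day 3, so its groups overlap. Its value was 2.31 with LPC day 10 replicate 1 left out and at most 4.25, with LPC day 3 replicate 1 left out. Of the NF-κB list, 9 of 11 were tested and 5 had a positive value. Nfkbia, the NF-κB inhibitor that NF-κB itself induces, had a log2 fold change of 2.10 ± 1.56 with 84.2 CPM in LPC day 10 replicate 3, against 1.85 to 10.2 CPM at day 3 (edgeR adjusted p = 0.999). Without that library it was -0.44. Nfkb1, an NF-κB subunit gene, had a value of -0.47 ± 0.81 on the log2 scale (adjusted p = 0.999 in edgeR).

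Both proteases that can shed Cxcl16 had negative values, and neither passed the test. Rhbdf2, a partner of ADAM17, had 0.10 ± 1.68 on the log2 scale (adjusted p = 0.999 in edgeR). Its sign was not settled: it ran from -0.61 without LPC day 10 replicate 1 to 2.25 without LPC day 3 replicate 1. Adam17 had 215.1, 302.6 and 33.9 CPM in replicates 1, 2 and 3 of LPC day 10, against 375.2, 429.4 and 314.1 CPM in replicates 1, 2 and 3 of LPC day 3, without overlap; its value was -1.02 ± 0.82 on the log2 scale, and -0.56 with LPC day 10 replicate 3 left out (adjusted p = 0.999 in edgeR). Adam10 had 111.6, 146.8 and 292.9 CPM at day 10, against 199.8, 235.7 and 364.3 CPM at day 3, and a value of -0.54 ± 0.80 on the log2 scale (adjusted p = 0.999 in edgeR). The Adam10 groups overlap.

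The listed neighbours of the Cxcl9, Art3 and Cxcl10 stretch had mixed patterns: 4 of the 5 tested had a positive value and 0 were called. Sdad1, beside Cxcl9, had 144, 336 and 49 counts in LPC day 10 replicates 1, 2 and 3, against 126, 41 and 263 in LPC day 3 replicates 1, 2 and 3. Nup54, a nuclear pore gene beside the far end of Art3, had 97, 166 and 2 counts at day 10, against 32, 49 and 19 at day 3, at 1.20 ± 1.87 on the log2 scale (adjusted p = 0.999 in edgeR). Scarb2, a lysosomal receptor gene, had 4949, 6761 and 7180 counts at day 10, against 7362, 6826 and 8281 at day 3. In CPM these are 518, 728 and 1931 at day 10, against 723, 972 and 999 at day 3. Its value was 0.24 ± 0.69 on the log2 scale (adjusted p = 0.999 in edgeR), and -0.56 without LPC day 10 replicate 3. Naaa had 243, 382 and 1 counts at day 10, against 275, 152 and 75 at day 3, so it and Nup54, like Cxcl9 and Cxcl10, were low in LPC day 10 replicate 3. Ppef2 had 0, 12 and 0 counts at day 10, against 51, 52 and 0 at day 3. Stbd1 had 114 counts in LPC day 3 replicate 1 and none elsewhere. Of the other ADP-ribosyltransferase genes, Art2b had 1 count in LPC day 10 replicate 1, Art1 and Art5 had none, and Art4 is listed at 0 FPKM. Art2a matched no symbol of the files.

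Genes with the most similar pattern were ranked by Pearson's r of log2 CPM over the 6 libraries, among 7860 genes with a mean of at least 5 CPM. The values describe 6 points that share libraries and depth. For Cxcl9 the nearest were Gpnmb, a glycoprotein gene of phagocytes (r = 0.987), Ruvbl2 (0.986) and Tnfsf8, which encodes the CD30 ligand (0.981). Gpnmb had 73.9, 47.0 and 1.08 CPM in replicates 1, 2 and 3 of LPC day 10, against 4.03, 0.569 and 0.965 CPM at day 3. For Art3 they were Coq2 (0.986), Rnf213 (0.980) and again Ruvbl2 (0.972). Rnf213, a large ubiquitin ligase gene, had 778.9, 948.4 and 444.8 CPM at day 10, against 413, 446.2 and 402.3 CPM at day 3.

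For Cxcl10 the nearest genes were Ptchd1 (0.997), Il2rg, which encodes the shared gamma chain of interleukin receptors (0.996), and Kcnj2, an inward-rectifier potassium channel gene (0.992). Kcnj2 had 1001, 1431 and 36.3 CPM in replicates 1, 2 and 3 of LPC day 10, against 399, 260 and 128 CPM in replicates 1, 2 and 3 of LPC day 3. For Cxcl16 they were Calr, an endoplasmic reticulum chaperone gene (0.996), Asb8 (0.987) and Fam63a (0.986). Calr had 468, 348.2 and 252 CPM at day 10, against 521.9, 187.9 and 627.7 CPM at day 3, the order of libraries seen for Cxcl16.

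All 6 microglia markers had counts in every library. They summed to 10330, 7369 and 29636 CPM in replicates 1, 2 and 3 of LPC day 10, against 13281 to 14579 CPM at day 3. Csf1r, Cx3cr1 or P2ry12 led the single values, which varied within day 10. Tmem119 had 540, 157 and 679 CPM at day 10, against 880, 858 and 483 CPM at day 3. P2ry12 had 341, 1092 and 6775 CPM at day 10, against 1447, 2185 and 1282 CPM at day 3. Csf1r or Cx3cr1 was the most abundant. Activated T and NK cells carry CXCR3. Of their 7 markers 4 are in the count table, with a sum of 0 CPM at day 10 and at most 0.0982 CPM (1 Cd8a count) at day 3, and Cd4, Ncr1 and Nkg7 had no count. Neutrophil markers summed to 0, 0.108 and 0.269 CPM at day 10, against 0, 0.142 and 82.7 CPM at day 3, led by S100a8 in LPC day 3 replicate 3, where Cxcl9 had 2 counts. Monocyte markers reached at most 7.32 CPM at day 10, mostly Ccr2, and 18.2 CPM at day 3, mostly Chil3. Dendritic cell markers reached at most 7.12 CPM at day 10, led by Flt3, and 28.3 CPM at day 3, all from Zbtb46, while Ccr7 had no count.

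Some markers of other cells were higher in the 2 day 10 libraries with high Cxcl9. The 5 oligodendrocyte markers summed to 106.4, 72.1 and 15.6 CPM in replicates 1, 2 and 3 of LPC day 10, against 32.2, 26.6 and 27.0 CPM at day 3, with Mbp the most abundant of them at day 10. Progenitor markers summed to 104.2, 33.7 and 1.88 CPM at day 10, against 12.97, 0.996 and 1.45 CPM at day 3. All of that came from Cspg4, with Pdgfra, Olig1 and Olig2 at 0. Endothelial markers summed to 56.0, 80.4 and 2.15 CPM at day 10, against 25.0, 4.13 and 22.6 CPM at day 3, at day 10 mainly from Flt1, with Cldn5 and Tek at 0. The other endothelial markers did not follow Flt1: Cdh5 had 0, 0.215 and 0.269 CPM at day 10, against 6.29, 0.142 and 10.7 CPM at day 3, and Pecam1 had 1.67, 6.14 and 0.538 CPM at day 10, against 7.37, 1.71 and 0 CPM at day 3. Astrocyte markers, mostly Slc1a3, summed to 67.4, 58.1 and 41.4 CPM at day 10, against 31.4, 128.5 and 105.9 CPM at day 3, with Gja1 at 0. Markers of border-associated macrophages, mostly Mrc1, summed to 6.07, 5.70 and 6.19 CPM at day 10, against 24.3, 93.2 and 75.9 CPM at day 3. The other markers of that list did not follow Mrc1. Pf4 had 4, 14 and 0 counts at day 10, against 0 in each day 3 library, and Lyve1 is listed at 0 FPKM throughout. Cd163 and F13a1 had day 3 counts in replicate 1 only (35 and 10). Neuronal markers, mainly Rbfox3, reached 10.9 CPM in LPC day 10 replicate 1 and at most 2.13 CPM at day 3. The part of these cells in the chemokine values was not tested.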

How the data were processed

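Sorted microglia were profiled at 10 and 3 days after LPC, 3 libraries each. The submitters' processing notes list the build GRCm38 with limma 3.30.8, edgeR 3.16.5, R 3.3.2 and STAR 2.5.2a. The sources used here do not give the counting program, annotation or strand setting. The authors deposited raw counts per Ensembl gene, a log2 table (each value within 0.00954 of log2(count + 0.5) less a constant of its library), an FPKM table, and log2 fold changes with unadjusted p-values. The direction of those fold changes was checked against the deposited log2 table (r = 0.996 across genes with day 3 minus day 10). Count columns were matched to libraries by sample number. FPKM columns are named by time point and were used by group.

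Symbols came from the FPKM table and positions from GENCODE M21. edgeR 4.0.16 in R 4.3.3 was fitted on all genes (filterByExpr with a minimum count of 10, TMM, quasi-likelihood F-test, Benjamini-Hochberg). The SE of a log2 fold change is its size over the square root of F. A prior count of 2 went into log2 CPM. The fit was tested on simulated data. Promoters were searched with Python 3.11.15. Amplified reads carry no molecular identifiers, so intervals cover counting error only. Genes were named by a rule: the members, the 2 tested genes of smallest p per list, the 3 most similar genes per member, locus neighbours and marker genes. Others, such as Ifngr1 and Cxcl11, were named after their values were seen, and some genes the rule names are not reported here. The members and lists were chosen with earlier results of these data known. Alternatives were other scalings and filters, DESeq2 1.42.0, limma-voom and limma-trend (limma 3.58.1) on log2 FPKM, a replicate block, and leaving out each library.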

Additional observations from a re-analysis of the deposited data

How the results depend on the processing

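Cxcl10 and Cxcl16 kept their direction under each of the 18 alternatives run, but not their size. Cxcl10, at 2.34 with all libraries, was 1.56 in limma-voom, 1.15 on log2 of FPKM plus 1, with or without the genes under a mean of 1 FPKM, 1.00 with the replicate block and 0.85 on log2 of FPKM plus 0.1, and 0.97 to 2.89 with 1 library left out. Cxcl16, at -0.62, ran from -0.64 to -0.16 with other settings and from -1.11 to -0.04 with 1 library left out. Cxcl9 kept its direction in the same 18, with a smaller log2 fold change of 3.43 on log2 of FPKM plus 1, with or without the genes under a mean of 1 FPKM, where the pseudocount shrinks low values. Art3 had 8.90 without the low-count filter it fails, 2.51 on log2 of FPKM plus 1 with or without that minimum, 4.53 on log2 of FPKM plus 0.1, and 8.34 to 10.82 in the 4 fits without 1 library that kept it. It failed the filter in the fits without LPC day 10 replicate 1 or 2 and under the other alternatives, which gave it no value. Over all genes 12 were called higher and 0 lower. The counts were 0 higher with RLE or library-size scaling, with the replicate block, with limma-voom and with limma-trend on FPKM, 2 with voom sample weights, 20 with a minimum of 1 CPM in 3 libraries, 45 with DESeq2 and 113 with no filter. Those called lower were 1 in limma-voom with and without weights, 1 with the 1 CPM filter, 5 with no filter and 19 in DESeq2. Leaving out 1 library gave 1 to 208 higher and 0 to 4 lower: 208, 169 and 1 higher without LPC day 10 replicates 1, 2 and 3, and 36, 41 and 26 higher without LPC day 3 replicates 1, 2 and 3. The cause was not tested. The pathway genes had 0 calls in all 18 alternatives. RLE scaling moved the median log2 fold change of all genes to 0.13, against -0.0023 with TMM. The replicate numbers did not pair the libraries: deviations of same-numbered libraries correlated at 0.0733, -0.0351 and 0.00727 for numbers 1, 2 and 3. The median of Art3 counts per Cxcl10 count over libraries was 0.00242 and rests on libraries with 0 or 1 Art3 count.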

Other observations

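Some listed genes did not pass the low-count filter but had counts. Nfkb2 and Relb, partners in the non-canonical NF-κB pathway, had 182, 32 and 1 and 79, 42 and 0 counts in LPC day 10 replicates 1, 2 and 3, against 10, 1 and 11 and 8, 0 and 2 counts in LPC day 3 replicates 1, 2 and 3. Ciita, the MHC class II transactivator that interferon gamma induces, had 59, 2 and 0 counts at day 10, against 0 at day 3 in each library. Socs1, a feedback inhibitor of the same pathway, had 3, 4 and 0 counts at day 10, against 0 at day 3. Cxcl17 ran the other way, with 4, 5 and 0 counts at day 10, against 3, 39 and 50 at day 3. These genes are named after their values were seen.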
